A study of Drosophila melanogaster with 4 samples.

Results

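This account covers the Broad peaks at the centromere-proximal ends of the large autosome arms of Drosophila melanogaster. A peak was included if its midpoint lay on 2L at position 20000000 or beyond, on 2R below 2000000, on 3L at 22000000 or beyond, or on 3R below 2000000, in FlyBase release 5 coordinates. Of the 5171 peaks deposited for the series, 4173 lay on these 4 arms, and 415 of those (9.94%) fell in the proximal stretches: 186 on 2L, 76 on 2R, 37 on 3L and 116 on 3R. The 3758 other peaks of the same arms are the background. The stretch 2L:21400000-21560000 alone held 88 of the 415 peaks, so the main shares, medians and densities are given with it and for the 327 peaks outside it.

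The peaks come from ChIP-seq, in which protein is cross-linked to DNA, recovered with an antibody, and the attached DNA is sequenced. The strain was y cn bw sp, and its whole embryos at the labelled stage of 0 to 8 h gave 2 ChIP samples and 2 Input samples. The ChIP antibody was a rabbit polyclonal against the core that all Broad isoforms share, and Input is genomic DNA sequenced without it. ChIP and Input embryos had 1 genotype, with y[1] and oc[R3.2] on the first chromosome. The second carried Gr22b[1], Gr22d[1] and cn[1], beside CG33964[R4.2], bw[1] and sp[1]. The third carried LysC[1] and lab[R4.2], with MstProx[1], GstD5[1] and Rh6[1]. Whole embryos mix many cell types, so a peak says nothing about which cells held it. The labels give the sex as unknown, and they also describe an egg collection later than the stage named.

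Broad, encoded by br (the Broad-Complex), comprises several transcription factors with a common BTB domain and alternative zinc fingers, best known as early targets of the moulting hormone ecdysone. Towards the centromere each autosome arm passes from euchromatin into pericentromeric heterochromatin, which is rich in transposons and satellite repeats, is marked by histone H3 lysine 9 methylation and is bound by HP1. Some genes work within this heterochromatin, such as light on 2L and rolled on 2R. The tandemly repeated genes of the core and linker histones also lie in the proximal part of 2L. No release 5 annotation was used here, so no peak was assigned to any gene.

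The 4 samples share 1 list of peaks, with a start, an end and a score for each. Values for each sample separately were not used here, and the labels do not say whether samples 1 and 2 of a group came from separate collections, so nothing below carries a replicate error and no test over samples could be made. Intervals are 95% intervals for the counting or ranking of peaks. Neighbouring peaks share their surroundings, which makes these intervals too narrow, and for that reason no p-value is given. The 500 kb windows along the arms and the 4 arms themselves show the spread that the intervals miss.

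The clearest difference of the proximal peaks lay in the background against which they were scored. The score was read as −log10 of a Poisson p-value. In MACS, the peak caller named in the list, each peak is tested against the highest of several background estimates, one of them a mean for the whole genome. A peak whose score falls exactly, at 2 decimals, on the value that a whole pileup would give against that mean of 49.75 fragments is called a genome-mean peak below. Of the 415 proximal peaks, 137 were genome-mean peaks (33.0%, Wilson interval 28.7 to 37.7%). In the background 377 of 3758 were (10.0%, 9.11 to 11.0%), and over the 4 arms together 12.3% were. The proximal share was higher by 23.0 percentage points (interval 18.5 to 27.7). Outside the dense stretch of 2L it was 78 of 327 (23.9%), higher than the background by 13.8 points (9.41 to 18.8). Some scores match by accident: at 181 other means between 40 and 49, on average 2.66% of the proximal scores and 2.63% of the background scores matched. At single means these shares reached 8.43% and 4.12%. The mean of 49.75 was itself chosen for the most matches.

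The arms differed in this share. Proximal 2R had the highest, 40 of 76 peaks (52.6%, 41.6 to 63.5%), against 67 of 919 on the remainder of 2R (7.29%), a difference of 45.3 points (34.1 to 56.3). On proximal 2L it was 81 of 186 (43.5%), against 90 of 788 (11.4%). Without the dense stretch, 2L had 22 of 98 (22.4%, 15.3 to 31.7%), still higher than its remainder by 11.0 points (3.50 to 20.5). On proximal 3L it was 10 of 37 (27.0%, 15.4 to 43.0%), against 102 of 937 (10.9%), with a wide interval for the difference of 16.1 points (4.31 to 32.2). Proximal 3R went the other way, with 6 of 116 (5.17%, 2.39 to 10.8%) against 118 of 1114 (10.6%), a difference of -5.42 points whose interval ran from -8.81 to 0.477. The proximal excess was thus seen on 2R, 2L and 3L and not on 3R. At single other means the accidental share reached 13.2% on proximal 2R, 9.68% on 2L, 10.8% on 3L and 7.76% on 3R. The 5.17% of proximal 3R lay below its own value, so its 6 matches may be accidental.

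**Figure D1:**
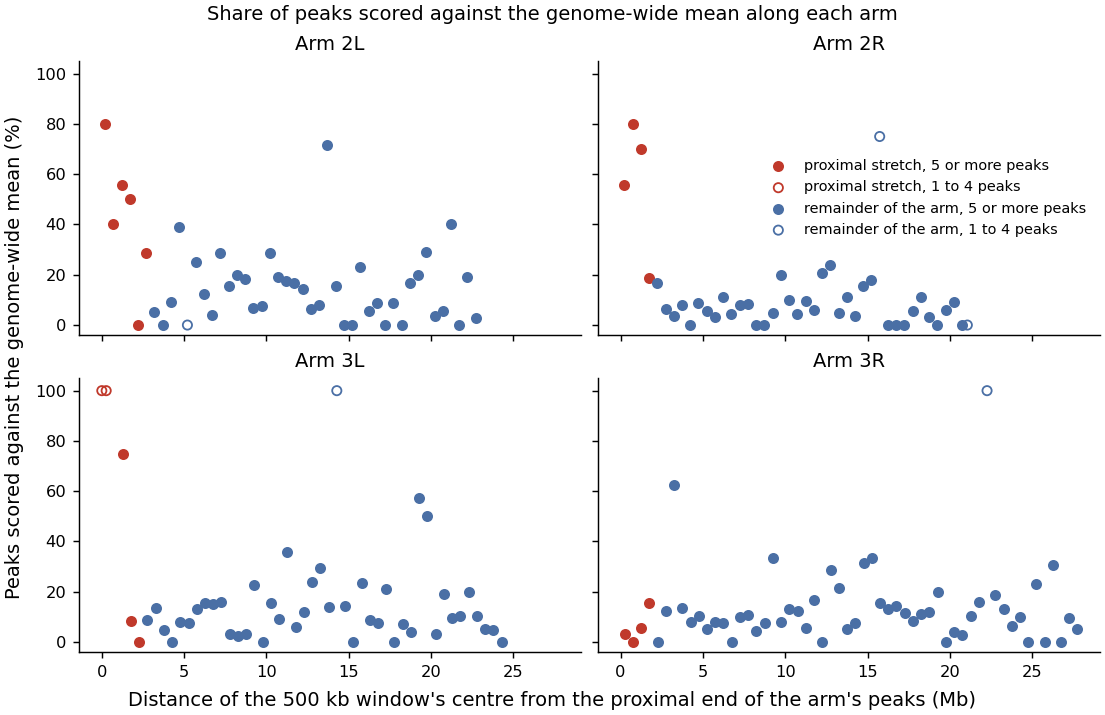
Share of genome-mean peaks (%) in windows of 500 kb against distance of the window's centre from the proximal end of the arm's peaks (Mb), by arm; red points lie in the proximal stretch, blue points in the remainder, and open points hold 1 to 4 peaks. On 2L, 2R and 3L the red points lie higher near the proximal end, up to 80.0% on 2L and on 2R and 75.0% on 3L among filled points, while the 4 red points of 3R stay between 0 and 15.4%.

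Window by window, the share rose towards the centromere on 2L, 2R and 3L, though not evenly. On 3R it did not, with 1 of 30, 0 of 21, 3 of 52 and 2 of 13 from the start of the arm outward. On 2R it was 5 of 9 peaks at 0 to 0.5 Mb, 16 of 20 at 0.5 to 1 Mb and 14 of 20 at 1 to 1.5 Mb, then 5 of 27 at 1.5 to 2 Mb. On 3L it was 0 of 14 at 22 to 22.5 Mb and 1 of 12 at 22.5 to 23 Mb, then 6 of 8 at 23 to 23.5 Mb, and the 3 peaks beyond 24 Mb were all genome-mean peaks. On 2L it was 4 of 14 at 20 to 20.5 Mb and 0 of 23 at 20.5 to 21 Mb, then 8 of 20 at 22 to 22.5 Mb and 4 of 5 beyond. The 2 windows between, which hold the dense stretch, had 36 of 72 and 29 of 52, and 1 of 19 and 5 of 17 without it. The change thus fell near 1.5 Mb on 2R and near 23 Mb on 3L. On 2L it came after 21 Mb with all peaks, and without the dense stretch the share showed no single step.

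Read across these arms, the inner part (2L from 22 Mb, 2R to 1.5 Mb, 3L from 23 Mb) held 56 genome-mean peaks among 85 (65.9%). The outer part (2L from 20 to 21 Mb, 2R from 1.5 to 2 Mb, 3L from 22 to 23 Mb) held 10 among 90 (11.1%), close to the 10.0% of the background. The part of 2L from 21 to 22 Mb, which holds the dense stretch, was left out. This division was drawn after the windows had been seen and is a description. High shares were not confined to the proximal stretches. Among windows with at least 5 peaks, a share above 50% occurred in 5 of 16 complete proximal windows and in 3 of 169 background windows. Those 3, at 2L 9 to 9.5 Mb, 3L 5 to 5.5 Mb and 3R 3 to 3.5 Mb, held only 7, 7 and 8 peaks. Of the 5 proximal windows, 3L 23 to 23.5 Mb and 2R 0 to 0.5 Mb were also small, with 8 and 9 peaks. Another, 2L 21.5 to 22 Mb, had only 5 of 17 without the dense stretch.

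Genome-mean peaks followed one another near the centromere of 2L, 2R and 3L, where their share was high. A higher share by itself gives longer series, and no allowance was made for it. The longest unbroken series of genome-mean peaks was 9 peaks over 23.1 kb on 2L, at 21430311 to 21453379 in the dense stretch. On 2R it was 8 peaks over 43.4 kb, at 674479 to 717829. On 3L it was 4 peaks over 154 kb, at 23118240 to 23271832, and on proximal 3R no 2 neighbours were genome-mean peaks. In the background the longest series were 6 on 2L, 5 on 2R, 3 on 3L and 5 on 3R, over 435, 171, 166 and 81.1 kb. The proximal series was thus much more compact than that of the remainder on 2L and 2R, and about as long on 3L.

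The same share was taken on the assembled heterochromatic scaffolds and on the X chromosome. Only this share is compared here, so a like value does not mean a like chromatin. On 2LHet, 2RHet, 3LHet and 3RHet together 28 of 33 peaks were genome-mean peaks (84.8%, 69.1 to 93.3%). On X 468 of 727 were (64.4%, 60.8 to 67.8%). The proximal stretches, at 33.0% (28.7 to 37.7%), lay below both, as they did without the dense stretch, at 23.9% (19.6 to 28.8%). The inner part, at 65.9%, was cut where this same share changed. Its value is therefore not set against X or the Het scaffolds. On 3R the contrast was sharpest, with 6 of 6 peaks of 3RHet against 1 of 30 in the first 0.5 Mb of the arm.

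A genome-mean peak can be read back to the pileup of fragments at its summit. In the proximal stretches these peaks had a median pileup of 108 fragments, which is 2.17-fold the genome-wide mean (range 1.79- to 4.48-fold), and 2.18-fold outside the dense stretch. In the background the median was 110 fragments, or 2.21-fold. A pileup may be off by 1, since it is not known whether the caller counts the observed value in the tail. By arm the proximal medians were 2.35-fold on 3L, 2.21-fold on 3R, 2.19-fold on 2L and 2.12-fold on 2R, and the dense stretch had 2.17-fold. Where they could be read, pileups were thus much alike inside and outside the proximal stretches. Each pileup is read from the score at 1 fixed mean, so this restates the likeness of these peaks' scores. Their median scores were 12.56 in the proximal stretches and 13.26 in the background. For the other peaks no pileup can be read, since their local background is unknown. How much sequenced background the proximal stretches carry was not measured, and its part in the share of genome-mean peaks was not tested.

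Scores themselves barely differed. The median was 13.69 in the proximal stretches (interval 13.21 to 14.55, quartiles 10.8 and 18.7) and 13.97 in the background (13.68 to 14.21, quartiles 10.6 and 20.2). Without the dense stretch it was 13.97, equal to the background to 2 decimals. By arm the proximal median was 13.66 on 2L, 13.13 on 2R, 15.46 on 3L and 13.61 on 3R, and each arm's interval for the difference from its remainder spanned 0. The excess of genome-mean peaks was present at each level of score below 30. It was 40.0% against 13.9% at scores below 10, 39.8% against 9.61% from 10 to 15, 23.8% against 8.66% from 15 to 20, and 27.5% against 8.52% from 20 to 30. Outside the dense stretch the proximal shares in these classes were 29.6%, 29.8%, 18.2% and, in the last, 7 of 50 peaks. At 30 and above it was 4 of 26 (15.4%) against 34 of 386 (8.81%), also higher but with few proximal peaks.

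Very high scores were rare in the proximal stretches and in the background. Scores of at least 50 occurred in 3 of 415 proximal peaks (0.723%, 0.246 to 2.10%) in 3 of the 327 outside the dense stretch (0.917%), and in 85 of 3758 in the background (2.26%, 1.83 to 2.79%), with 2.11% over the 4 arms together. The intervals overlap. On 3L and 2R none of 37 and 76 proximal peaks reached 50. On the remainders of these arms 1.39% and 2.29% did, so so few proximal peaks do not set either arm apart. Scores of different peaks depend on depth and local background, so they rank peaks of this list and do not measure occupancy.

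**Figure D2:**
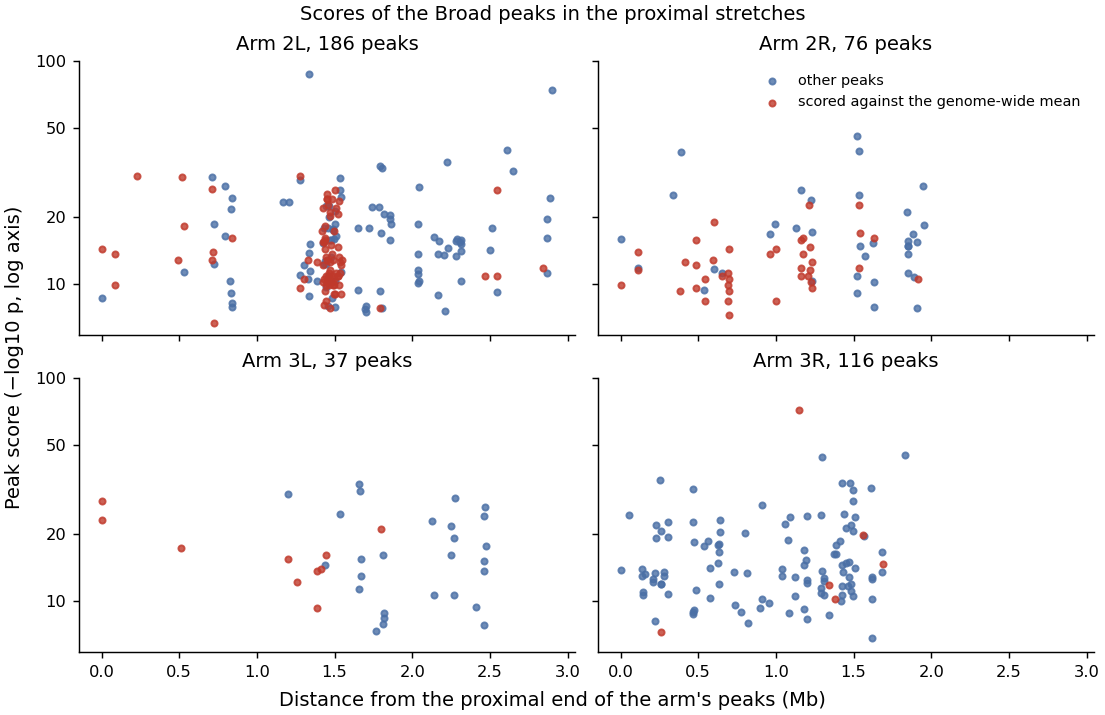
Score of each proximal peak (−log10 p, log axis) against its distance from the proximal end of the arm's peaks (Mb), by arm; red points are genome-mean peaks and blue points the others. On 2L the dense stretch stands as a column of points near 1.5 Mb with scores up to 29.8, and only 3 points in all, on 2L and 3R, lie above 50.

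The strongest proximal site was 2L:21628375-21630434, with a score of 87.87 and a width of 2060 bp. It lay just beyond the dense stretch, in a run of 5 peaks. The next on this arm were 2L:20060106-20062257, with a score of 74.19, and 2L:20349150-20351190, with a score of 40.08, both without another peak within the 5 kb used to chain runs. The first of these was also the widest proximal peak of 2L, at 2152 bp. None of them was a genome-mean peak. The most proximal peak of 2L, at 22961314 to 22962009, had a score of 14.33 and was one, with a pileup of 113 fragments.

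On 3R the strongest was 3R:1148987-1150913, with a score of 72.16 and a width of 1927 bp. Its score fell on the genome-wide mean, at a pileup of 223 fragments or 4.48-fold, the highest fold among the proximal genome-mean peaks. Whether this 1 match is accidental cannot be told from the list. The next 2 were 3R:1832359-1834382, which scored 45.45, and 3R:1295256-1297333, which scored 44.29. The widest proximal peak of all 4 arms was 3R:1483962-1487023, at 3062 bp, with a moderate score of 22.03. Peaks reached nearly to the start of the arm, where 3R:337-711 had a score of 13.86.

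On 2R the strongest was 2R:1540261-1541326, with a score of 46.16, closely followed along the arm by 2R:1550114-1550870 at 39.70. Both lay in the window where the share of genome-mean peaks was low. The third, 2R:403933-405130 at 39.29, lay farther in, among weaker peaks. The widest was 2R:1963591-1965057, at 1467 bp, and the most proximal, 2R:18281-18511, was a genome-mean peak with a score of 9.92.

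On 3L no proximal peak exceeded 33.45, the score of 3L:22871035-22872196. A neighbour at 3L:22863577-22865643 had a score of 31.16 and was the widest of this stretch, at 2067 bp. The third was 3L:23331120-23332409 at 30.28, followed by 1 more peak, 3L:23332690-23333202 with a score of 15.44, before the longest gap of the proximal stretches. Beyond that gap, the most proximal peak of the arm, 3L:24529998-24530579, was a genome-mean peak with a score of 28.24 and a pileup of 146 fragments.

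The boundaries of the stretches did not follow a change in the peaks. Just inside and just outside, the scores were 74.19 and 89.12 on 2L, 18.45 and 10.88 on 2R, 17.75 and 14.70 on 3L, and 45.45 and 21.24 on 3R. The peaks just outside on 2L, 2R and 3L were genome-mean peaks and those just inside were not, the reverse of the order nearer the centromere.

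Peak density in the proximal stretches as a whole matched the background only with the dense stretch included. By arm, some proximal stretches were then denser than their remainders and others sparser. The stretches held 43.8 peaks per Mb over 9.47 Mb, and the background 43.2 per Mb over 87.0 Mb, a ratio of 1.01 (0.914 to 1.12). Without the dense stretch the proximal density was 35.1 per Mb, a ratio of 0.813 (0.724 to 0.910). Lengths were taken from the first to the last peak of each arm, so unlisted sequence at the arm ends was not counted.

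Proximal 3L was the sparsest, with 14.6 peaks per Mb against 42.6 on its remainder, a ratio of 0.343 (0.240 to 0.476). Proximal 2R had 38.4 against 48.0, a ratio of 0.799 whose interval (0.624 to 1.01) reached 1. Proximal 3R was denser than its remainder, at 58.0 against 43.0 per Mb, a ratio of 1.35 (1.10 to 1.63). The window at 1 to 1.5 Mb alone held 52 of its 116 peaks. Its other windows held 30, 21 and 13, against a mean of 21.5 in the windows of its remainder. Proximal 2L had 62.8 against 39.4, a ratio of 1.59 (1.35 to 1.87), which became 0.887 (0.711 to 1.10) without the dense stretch. The density of 2L thus turned on that 1 stretch.

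**Figure D3:**
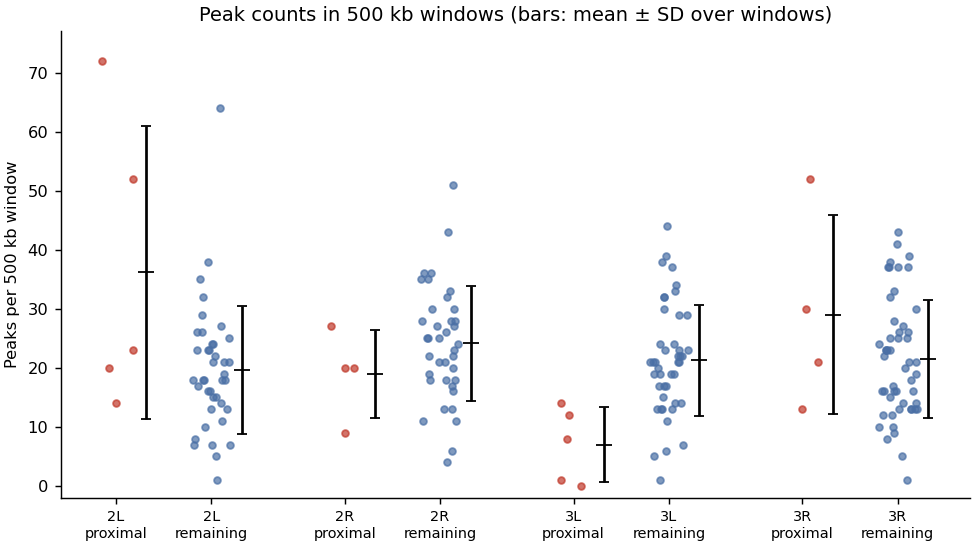
Peaks per complete window of 500 kb by arm, in the proximal stretch (red) and the remainder (blue), each point a window, with mean and SD over windows in black. Proximal 3L lies low, with no window above 14 peaks, and proximal 2L holds the highest window, with 72.

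Counts per window were more spread near the centromere when the dense stretch was included. Complete proximal windows held 22.7 ± 18.8 peaks (SD, n = 18 windows) and background windows 21.6 ± 10.0 (SD, n = 173 windows). Without the dense stretch the proximal mean was 17.8 ± 11.7, within 1 SD of the background, and the SD was close to the background's. By arm the proximal SD was then below that of the remainder on 2L (3.36 against 10.8). It was also lower on 2R (7.44 against 9.73) and 3L, and higher only on 3R. On 3L the proximal windows held 7.0 ± 6.32 peaks (n = 5 windows), with 14, 12, 8, 0 and 1 towards the centromere, against 21.3 ± 9.43 (n = 44 windows). On 3R they held 29.0 ± 16.8 (n = 4 windows), in which the window at 1 to 1.5 Mb had 52 and the others 13 to 30, against 21.5 ± 10.0 (n = 51 windows). The spread over 4 or 5 windows was too large to set apart the counts of 2L, 2R and 3R from their remainders.

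The longest stretch without peaks at the proximal ends lay on 3L. The number of gaps over 100 kb did not set 3L apart, with 7 against 8 on 2L, 6 on 2R and 2 on 3R. As a share of the few gaps there, they made up 7 of 36 on proximal 3L (19.4%), against 56 of 936 on its remainder (5.98%). The longest, 3L:23333203-24021284, spanned 688 kb. On 2L the longest proximal gap was 2L:21795423-22120762, of 325 kb, and on 2R it was 2R:1250294-1540260, of 290.0 kb, which separated the inner genome-mean peaks from the strong peaks just beyond it. On 3R it was 3R:305412-466368, of 161 kb. Over all 4 stretches 23 of 411 gaps exceeded 100 kb (5.60%), against 234 of 3754 in the background (6.23%).

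Proximal peaks had near neighbours slightly more often. Another peak lay within 5 kb, midpoint to midpoint, for 347 of 415 (83.6%, 79.7 to 86.9%), for 2871 of 3758 in the background (76.4%, 75.0 to 77.7%), and for 77.1% over the 4 arms. The difference of 7.22 points (3.13 to 10.7) shrank to 2.81 points without the dense stretch, with an interval from -2.10 to 7.09. By arm, proximal 2R had 66 of 76 (86.8%) against 75.4% on its remainder, a difference of 11.4 points (1.66 to 18.0). On 3L (73.0% against 74.6%) and 3R (78.4% against 77.9%) the intervals of the difference spanned 0, as on 2L without the dense stretch (76.5% against 77.5%).

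Outside the dense stretch the proximal groups of peaks were short. When peaks no more than 5 kb apart were joined into runs, the proximal peaks formed 153 runs, of which 68 were single peaks (44.4%), against 789 of 1718 in the background (45.9%). Apart from the dense stretch the longest proximal run had 8 peaks, at 2R:1237764-1250293, with 5 genome-mean peaks and a highest score of 23.79. The run 2R:710421-717829 had 7 peaks in 7.41 kb, and all 7 were genome-mean peaks, with a median score of 9.92. On 3R the longest run, 3R:629314-639872, also had 7, none of them a genome-mean peak, with a median score of 17.89. A run of 7 on 2L, at 20917955 to 20927763, likewise had none. On 3L the longest run had 5 peaks, at 22064566 to 22071300, with a highest score of 26.55. Runs of equal length thus consisted wholly of genome-mean peaks on inner 2R and held none on 3R and outer 2L.

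The dense stretch of 2L held the most closely spaced of the proximal peaks. Its 88 peaks amounted to 550.0 per Mb, and peaks covered 28.2% of its 160 kb, against 2.14% of the proximal stretches outside it and 2.87% of the background. The peaks fell in a run of 16 over 23.4 kb and a run of 72 over 90.2 kb, in which peaks covered 45.6% and 38.2% of the sequence. The median gap between neighbours was 593 bp, against 2908 bp between proximal peaks outside it. Genome-mean peaks made up 59 of 88 (67.0%, 56.7 to 76.0%), 12 of 16 in the first run. Scores were even, from 7.83 to 29.80 with a median of 12.90. The highest belonged to 2L:21423826-21425678, 1853 bp wide, and the widest was 2L:21433922-21435848, 1927 bp wide with a score of 23.65. How the authors treated reads that map to several places is not given in the sources used here, and its part in this stretch was not tested.

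**Figure D4:**
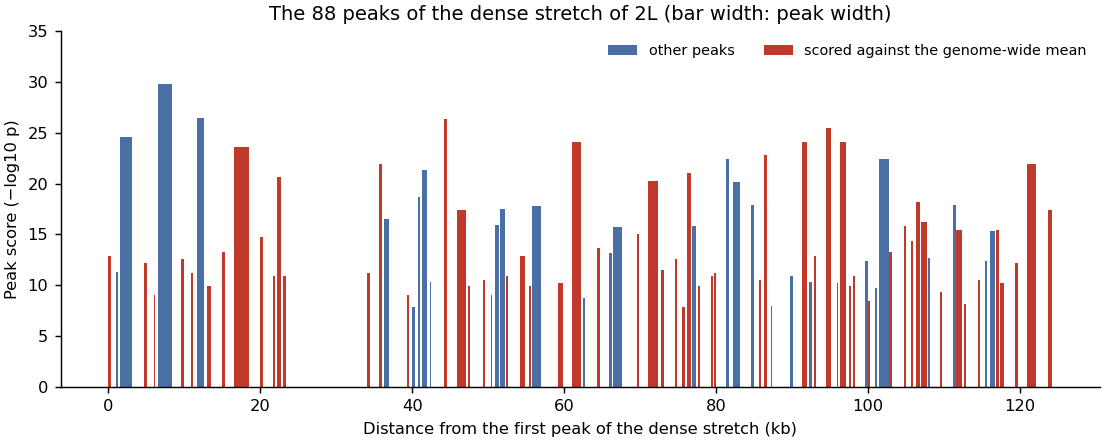
Score (−log10 p) of the 88 peaks of the dense stretch of 2L against distance from its first peak (kb); the width of a bar is the width of the peak, and red bars are genome-mean peaks. Peaks stand side by side over the 2 runs with no score above 29.8, and red bars outnumber blue ones, 59 to 29.

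Proximal peaks were slightly narrower, and this came mainly from 2R and the dense stretch. The median width was 415 bp in the proximal stretches (interval 393 to 447) and 464.5 bp in the background (447 to 479), a difference of -49.5 bp (-75.8 to -13.0). On 2R it was 364.5 against 482 bp, a difference of -117.5 bp (-177 to -61.9), and 5 of 76 proximal peaks were wider than 1 kb (6.58%) against 176 of 919 (19.2%). On 3L the medians were 453 and 451 bp and on 3R 444.5 and 471 bp, with intervals of the difference that spanned 0. On 2L it was 379.5 bp in the dense stretch and 515.5 bp outside it, against 445.5 bp on the remainder. Without the dense stretch the overall difference was -35.5 bp, with an interval from -71.5 to 12.8, and without 2R it was -18 bp (-55.6 to 35.3).

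**Figure D5:**
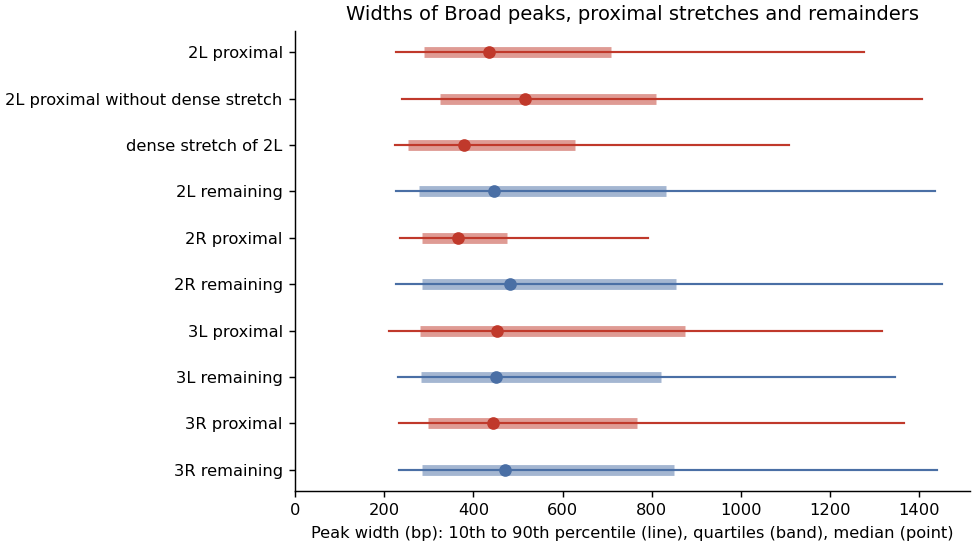
Width of peaks (bp) by arm in the proximal stretches (red) and remainders (blue), with the dense stretch of 2L apart; points are medians, bands quartiles and lines the 10th to 90th percentile. The band of proximal 2R ends at 475 bp, while the bands of the 4 remainders end between 822 and 855 bp.

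Genome-mean peaks were narrower than the others in both classes, with medians of 385 and 446 bp in the proximal stretches and 406 and 470 bp in the background. On proximal 2R the order was reversed, at 387.5 bp for genome-mean peaks and 344 bp for the others, so its narrow widths did not come from its genome-mean peaks alone. Width and score rose together across peaks, with a Spearman rho of 0.732 over the 415 proximal peaks, 0.728 over the 327 outside the dense stretch and 0.788 over the 3758 background peaks, and of 0.587 over the 76 peaks of proximal 2R. Width and score are products of a single peak call, and these correlations are descriptions across peaks, which are not independent.

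Peaks covered 2.58% of the proximal sequence and 2.87% of the background. By arm the value was 0.905% for 3L, 1.68% for 2R, 3.77% for 3R and 3.82% for 2L, or 2.43% on 2L without the dense stretch. On the remainders of the arms it ran from 2.62% on 2L to 3.24% on 2R. Relative to its remainder, proximal 3L was thus sparse with peaks of usual width. Proximal 2R held narrower peaks than its remainder, mostly scored against the genome-wide mean. Proximal 3R had few genome-mean peaks. Its higher density turned on 1 window of 500 kb, which held 52 of its 116 peaks, and its window counts did not set it apart from its remainder.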

How the data were processed

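Per the labels, embryo chromatin was cross-linked in formaldehyde and either immunoprecipitated or kept as Input. The submitters' processing notes name CASAVA (1.7.0.2 and 1.7.0.3), BWA, MACS2 and build BDGP5. Per the file headers, coordinates are of FlyBase release 5. For settings, pooling of libraries and repeated sequence the entry is "not given in the sources used here". The score of a peak, deposited by the authors without a name, was read as −log10 p. The genome-wide mean was the one, from 10 to 120 in steps of 0.01 and then 0.001, at which most scores of the whole list lay at 2 decimals on Poisson tail values of whole pileups (1138 of 5171, 22.0%). The lower of tied means was kept. The scan was tested on simulated data. Depth per library is unknown.

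Shares have Wilson intervals and their differences Newcombe's. Medians have order-statistic intervals, and density ratios exact binomial ones. They cover counting only. Regions were named by a rule: per stretch the 3 highest scores, the widest and most proximal peak, the longest run and the longest gap. Other named runs, series and the strongest and widest peak of the dense stretch were chosen after their values were seen. The members, the lists and the stretch set apart on 2L were chosen with earlier results of these data known. Alternatives moved the boundaries, left out arms or the dense stretch, kept the top 50% by score, joined near peaks, and widened the match. No genome or annotation of release 5 was used here, so no sequence is printed and no gene is named as bound. Software was matplotlib 3.10.9, pandas 2.3.3, scipy 1.17.1 and numpy 2.4.6 under Python 3.11.15.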

Additional observations from a re-analysis of the deposited data

How the results depend on the processing

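Differences are proximal minus background. The share of genome-mean peaks, higher by 23.0 points, stayed higher in all 8 alternatives. It was 34.7 points with boundaries 1 Mb nearer the centromere, 14.9 with boundaries 1 Mb farther, 13.8 without the dense stretch, 14.8 without 2L, 17.7 without 2R and 34.0 without 3R. The ratio of densities, 1.01, was 0.813 without the dense stretch, 0.900 with peaks under 1 kb apart joined, 0.793 without 2L and 1.25 without 3L, so it fell on either side of 1. The difference in near neighbours, 7.22 points, was 12.8 with boundaries 1 Mb nearer the centromere and 2.81 without the dense stretch. Without 2L it was 4.26 points, with an interval from -1.57 to 9.14. The other values of these results stayed within their intervals, as did all those of the median score and the median width. No paired analysis was possible because peaks were listed once for the 4 samples together, which also kept any replicate from being left out. With library depths unknown, differences among the 37 proximal peaks of 3L, the smallest group, are limited by their number.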

Other observations

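The opposite, distal ends of the same arms, taken at the same lengths as the proximal stretches and chosen after the list was seen, held 398 peaks, or 42.0 per Mb. Of these, 31 were genome-mean peaks (7.79%, Wilson interval 5.54 to 10.8%), against 33.0% of the proximal peaks. By arm the distal share was 13 of 134 on 2L, 4 of 99 on 2R, 7 of 107 on 3L and 7 of 58 on 3R. The proximal share was above the distal one on 2L, 2R and 3L, and below it on 3R (5.17% against 12.1%). Distal peaks had a median score of 13.86 and a median width of 469 bp. The sparse end differed between the arms of chromosome 3, with 14.6 peaks per Mb at the proximal end of 3L and 42.3 at its distal end, and 58.0 at the proximal end of 3R and 29.0 at its distal end.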
